A study of Homo sapiens with 2 samples.

Results

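Upstream inducers of the acute phase response were followed in MDA-MB-231 cells, a human line of triple-negative breast cancer, with RBMS1 depleted or at its control level. The 10 genes, of 49627 listed in the files, were taken by their GENCODE symbols as parts of the route from cytokine to acute phase gene. Earlier results of these data were known when they were chosen. They are the nuclear IκB proteins NFKBIZ and BCL3, the C/EBP factors CEBPB and CEBPD, the transcription factor STAT3 and its feedback inhibitor SOCS3. The others are the receptor chains IL6ST, IL6R and OSMR, and the kinase JAK1. RNA-seq was carried out on 1 library of RBMS1-depleted cells and 1 library of control cells, so no value has a replicate, no p-value was computed, and every comparison describes these 2 libraries. In the study's methods, stable cell lines were made by lentiviral infection with shRNA in the pLKO.1 plasmid and puromycin selection with the empty plasmid as control, and which of the shRNAs this library carries is not given in the sources used here. No cytokine treatment is given in the labels, so the values are those of unstimulated cultures as far as the labels tell.

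In the acute phase response, IL-6 binds its receptor IL6R, which then pairs with gp130, the signal-transducing chain encoded by IL6ST. Oncostatin M uses gp130 together with OSMR. Kinases of the JAK family, JAK1 foremost, then phosphorylate STAT3, which enters the nucleus and switches on acute phase genes and also SOCS3, the protein that binds gp130 and JAK1 and shuts the signal off. IL-1 and TNF act through NF-κB in parallel, and C/EBPβ, C/EBPδ and the IκB-like cofactors IκBζ (NFKBIZ) and Bcl-3 add to the output at genes such as LCN2 and the serum amyloid A genes. In liver this makes plasma proteins, and many epithelial and tumor cells carry a part of the same route.

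Levels are given as FPKM, which divides fragments by transcript length and by the size of the library, so that genes of different length can be set side by side. A gene value adds up the reference transcripts of the gene and those that Cufflinks assembled from the reads and that share at least 1 intron with the gene. The log2 ratio sets the RBMS1 knockdown library over the control library after adding 1 FPKM to both, which understates the change of low genes. Where a pair of levels stands without a library, the knockdown library comes first. Brackets give the interval that Cufflinks writes for a transcript, summed over the gene. It covers the uncertainty within a library and not the difference between cultures, and depth in reads is unknown, as no counts were analysed. Median coverage per FPKM was 12.4 for the knockdown library and 11.4 for the control library. RBMS1 itself was at 3.76 FPKM (3.12 to 5.39) in the knockdown library and 24.1 FPKM (21.7 to 27.7) in the control library, 15.6% of the control level, which goes with the labels. Markers of a mesenchymal line were abundant, with VIM at 496 and 563 FPKM, while the leukocyte, hepatocyte and endothelial markers looked at were all below 1 FPKM in both libraries, CD14 being the highest at 0.783 and 0.968 FPKM. Of 6 luminal markers ESR1, PGR, CDH1 and FOXA1 were near 0, while GATA3, at 2.11 and 1.56 FPKM, and the more abundant ERBB2 were above 1 FPKM in both libraries. Of the 5 mesenchymal markers looked at, SPARC was low, at 1.58 and 0.920 FPKM.

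Upon RBMS1 depletion none of the 9 genes that were clearly expressed differed by 2-fold or more, and the differences were uneven along the route. CEBPB was lower, at 54.2% of its control level, as were IL6ST at 71.2% and JAK1 at 81.5%. BCL3 was at 69.0% and NFKBIZ at 85.6%, with overlapping summed intervals. For the main reference transcript of each, BCL3-201 and NFKBIZ-202, the intervals were apart with the lower level in the knockdown library. SOCS3 went the other way, at 160% of its control level. STAT3, OSMR and CEBPD were between 97.1% and 109%. IL6R was hardly expressed in either library, at 6.97% of a control level that was itself below 1 FPKM. In bulk RNA, fewer cells with a transcript and less of it per cell cannot be told apart.

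**Figure D1:**
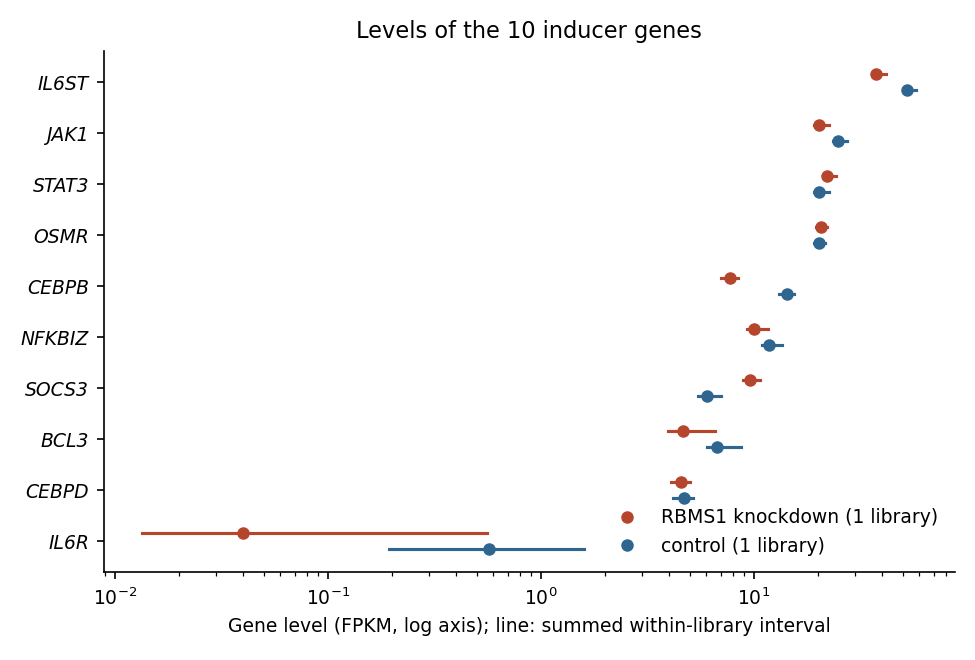
Gene level in FPKM on a log axis for the 10 genes, with the RBMS1 knockdown library in red and the control library in blue; points are the levels and lines the summed within-library intervals. IL6ST had the highest level in both libraries and IL6R the lowest, and the lines of both libraries are apart for CEBPB, IL6ST, JAK1 and SOCS3.

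Of the 10 genes, 9 had a mean of at least 1 FPKM, the limit for the counts here, and IL6R did not reach it. Of these 9, none was at least 2-fold lower and none at least 2-fold higher, whereas among all 11186 genes over the limit 2.8% were at least 2-fold lower and 2.96% at least 2-fold higher. At these shares, 9 genes with no 2-fold change are near the background. The within-library intervals were apart with the lower level in the knockdown library for 3 genes (CEBPB, IL6ST and JAK1), where 11.5% of all genes had this, and with the higher level there for 1 gene (SOCS3), where 13.3% of all genes had it. Each reference transcript listed at 0 still adds its upper bound, so summed intervals tend to be wider for genes with many transcripts. Of the 9 genes 6 had a log2 ratio below 0, beside 47.2% of all genes. Their median log2 ratio was −0.21, beside 0.02 over all genes. With 9 genes, these counts describe the group and call nothing particular to it.

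**Figure D2:**
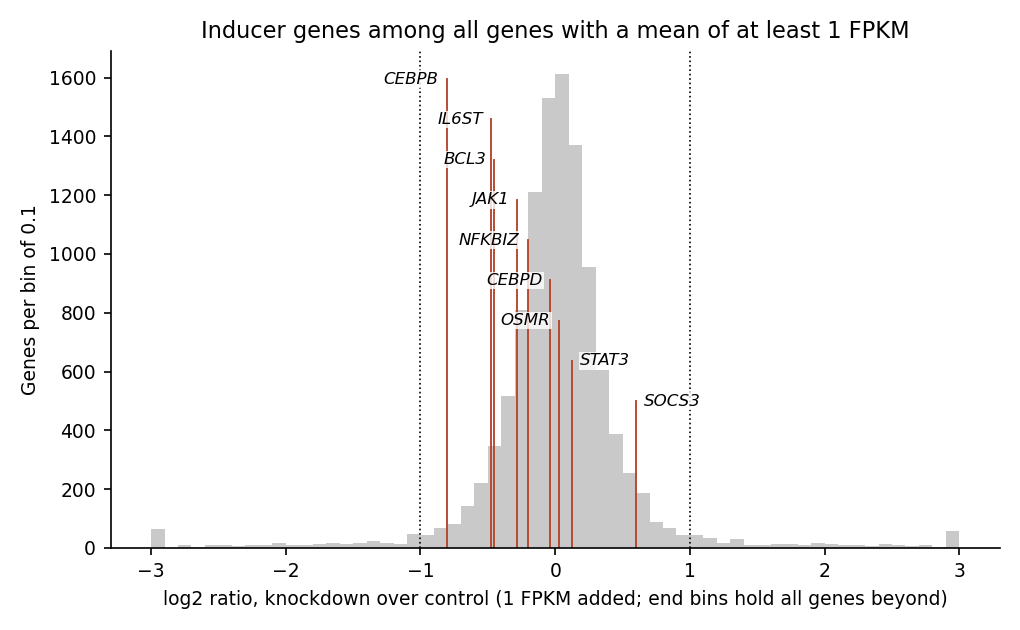
Number of genes per bin of 0.1 in log2 ratio (knockdown over control) for the 11186 genes with a mean of at least 1 FPKM, with genes beyond the axis placed in the end bins; red lines mark the 9 inducer genes over the limit and dotted lines a 2-fold difference. CEBPB lies farthest to the left at −0.81 and SOCS3 farthest to the right at 0.60, and all 9 lie between the dotted lines.

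The sequences below are shown because the route passes through NF-κB, C/EBP and STAT3, and because words of the NF-κB type stand near the start of several of the genes, whichever way their levels differed. RefSeq promoters on GRCh38.p14, from 250 bases before to 50 bases after the start, were found for 9 of the 10 genes (all but CEBPD), 14 promoters in all. They were searched on both strands for GGGANNNNCC (NF-κB type), TTGCNNAA (C/EBP type) and TTCNNNGAA (STAT type), and overlaps between words were allowed. The NF-κB type word was found in 8 of the 14 promoters, belonging to 7 genes (NFKBIZ, BCL3, CEBPB, SOCS3, IL6ST, IL6R and OSMR), and in 25.6% of all 35116 promoters. These include SOCS3, which was higher in the knockdown library, and OSMR, which was nearly equal, while JAK1, which was lower, held none. The C/EBP type word was found once, in OSMR, beside 10.5% of all promoters. The STAT type word was in none of the 14, SOCS3 included, beside 7.66% of all promoters, which says only that these letters are absent from these windows. A match is a description and not a binding site. Each line gives 30 bases 5′ to 3′ on the strand of the gene, with the word (or its reverse complement) in capitals.
NFKBIZ, upstream promoter, chr3:101827757-101827786, plus strand: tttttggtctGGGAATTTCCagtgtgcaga
NFKBIZ, downstream promoter, chr3:101849265-101849294, plus strand: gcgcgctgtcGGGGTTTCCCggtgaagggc
BCL3, chr19:44748700-44748729, plus strand: ccggctgcagGGGAAGTCCCggcgcccggc
CEBPB, chr20:50190749-50190778, plus strand: gcggcgcggcGGGAGGGGCCggcgtgacgc
IL6ST, chr5:55994998-55995027, minus strand: ggcgggattgGGGAGCGCCCcgccccgccg
SOCS3, chr17:78359652-78359681, minus strand: ccccttcccgGGTCATTCCCggcagggagg
OSMR, NF-κB type word, chr5:38845768-38845797, plus strand: ttccttcccaGGCCTCTCCCacttcctctt
OSMR, C/EBP type word, chr5:38845928-38845957, plus strand: aagacgggaaaTTGCAAAAgacctcacccc

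The transcription factors are taken first. CEBPB (ENSG00000172216), which encodes C/EBPβ, is a gene of 1 exon on chromosome 20 (GRCh38, 50190734 to 50192689, plus strand). It was at 7.75 FPKM (7.03 to 8.47) in the knockdown library and 14.3 FPKM (13.2 to 15.4) in the control library. The level in the knockdown library was thus below the whole interval of the control library, with a log2 ratio of −0.81 that ran from −1.03 to −0.58 when the interval bounds were set against each other. Ordered from the largest decrease it had rank 418 of the 11186 genes. All of its level came from the single reference transcript CEBPB-201, which codes for 345 amino acids, and no assembled transcript was involved. The different C/EBPβ proteins are made from this mRNA by the choice of start codon, which FPKM cannot show. Annotated genes of the opposite strand overlap CEBPB, IL6ST, IL6R, OSMR and JAK1. Whether the libraries kept strand is not given in the sources used here, so reads from overlapping genes cannot be told apart.

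CEBPD (ENSG00000221869), the gene of the related factor C/EBPδ, is likewise a gene of 1 exon, on chromosome 8 from 47736909 to 47739086. It was at 4.55 FPKM (4.08 to 5.01) in the knockdown library and 4.68 FPKM (4.19 to 5.18) in the control library. The intervals of both libraries overlapped over most of their length, and the log2 ratio was −0.04 (−0.28 to 0.21). The difference between CEBPB and CEBPD in their log2 ratios was larger than their intervals, which do not meet. Of the other C/EBP genes, CEBPG was at 5.97 and 7.65 FPKM, or a log2 ratio of −0.31 with intervals apart, and CEBPA, CEBPE and DDIT3 were each at or below 0.0523 FPKM in both libraries.

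STAT3 (ENSG00000168610), on chromosome 17 from 42313324 to 42388568 on the minus strand, was at 22.2 FPKM (21.0 to 24.4) in the knockdown library and 20.2 FPKM (19.2 to 22.5) in the control library. Its level hardly differed, with a log2 ratio of 0.12 and overlapping intervals. Of its 14 reference transcripts only STAT3-201, with 24 exons and the full-length protein of 770 amino acids, was above 0 in these libraries. mRNA levels do not show the phosphorylation of STAT3, which is what the cytokine controls. Among other STAT genes, STAT6 was at 12.5 and 13.7 FPKM, or a log2 ratio of −0.12, with overlapping intervals. With reference transcripts only, STAT2 was at −0.62 in place of 0.06 and STAT5A at 1.37 in place of −0.02.

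For the genes of the nuclear IκB proteins, the summed intervals of both libraries overlapped. BCL3 (ENSG00000069399), on chromosome 19 from 44747705 to 44760044, was at 4.64 FPKM (3.96 to 6.58) in the knockdown library and 6.72 FPKM (6.05 to 8.75) in the control library, a log2 ratio of −0.45. The summed intervals overlapped because each of its 9 reference transcripts adds an upper bound, even those at 0. For BCL3-201 alone, the transcript that carried 89.0% of the knockdown level and 100% of the control level, the values were 4.13 FPKM (3.62 to 4.65) and 6.72 FPKM (6.05 to 7.40), with intervals apart.

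NFKBIZ (ENSG00000144802) encodes IκBζ, the cofactor known to be needed for LCN2 transcription, and lies on chromosome 3 from 101827991 to 101861022 on the plus strand. It was at 10.1 FPKM (9.31 to 11.7) in the knockdown library and 11.8 FPKM (10.9 to 13.5) in the control library, a log2 ratio of −0.21 with overlapping intervals. Its reference transcript NFKBIZ-202, which starts at 101849514 behind the downstream promoter printed above and codes for 718 amino acids, was at 6.36 FPKM (5.86 to 6.85) and 9.32 FPKM (8.67 to 9.97), a log2 ratio of −0.49 with intervals apart. The size of the NFKBIZ difference therefore depended on how assembled transcripts were counted. The rest of the level was 1 assembled transcript in each library. That of the knockdown library, at 3.71 FPKM, had 7 exons within the region of the gene. That of the control library, at 2.44 FPKM, had 18 exons from 101779202 to 101859362 and shared 10 introns with NFKBIZ and 6 with the upstream neighbour NXPE3, so that it joined both genes. The control library also held an assembled transcript of 1 exon from 101855020 to 101859362 at 4.71 FPKM, which shares no intron with the gene and is not part of its value. With such exon-overlapping transcripts added for all genes, the log2 ratio of NFKBIZ was −0.66. In the authors' joint table of both libraries, whose FPKM are on a scale of their own, NFKBIZ-202 is at 9.51 and 15.6 FPKM, again a log2 ratio of −0.66. The log2 ratio of NFKBIZ was below 0 under each way of computing it, and the division of reads between these transcripts was not tested.

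SOCS3 (ENSG00000184557), the feedback inhibitor and itself a target of STAT3, lies on chromosome 17 from 78356778 to 78360077 (minus strand). Its level was 9.61 FPKM (8.89 to 10.7) in the knockdown library and 6.01 FPKM (5.45 to 6.99) in the control library. The intervals were apart, with a log2 ratio of 0.60 (0.31 to 0.86), and SOCS3 was the only inducer gene with a higher level and separate intervals in the knockdown library. Its level came from SOCS3-201 alone. In the authors' joint table the same transcript is at 17.6 and 11.1 FPKM, or a log2 ratio of 0.61. Among the other inhibitors, SOCS1, a relative of SOCS3, was at 2.07 and 1.55 FPKM with overlapping intervals, and the phosphatase gene PTPN11 was at 48.3 and 46.8 FPKM, or a log2 ratio of 0.04. PIAS1, which encodes an inhibitor of STAT proteins, was at 6.67 and 4.22 FPKM, or a log2 ratio of 0.56 with intervals apart. With reference transcripts only, the log2 ratio of PIAS1 was 2.26, so its size depended on the transcripts counted.

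The shared receptor chain gp130 was the most abundant of the 10 genes. IL6ST (ENSG00000134352), on chromosome 5 from 55935095 to 55994993 on the minus strand, was at 37.4 FPKM (35.8 to 41.9) in the knockdown library and 52.6 FPKM (50.3 to 57.8) in the control library. The intervals were apart, with a log2 ratio of −0.48 (−0.68 to −0.26). Of 15 reference transcripts only IL6ST-206, with 17 exons and 918 amino acids, the length of the full receptor, was above 0. The authors' joint table has it at 60.6 and 86.9 FPKM, or a log2 ratio of −0.51.

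OSMR (ENSG00000145623), the chain that pairs with gp130 for oncostatin M, lies on chromosome 5 from 38845858 to 38945596 on the plus strand. It was at 20.6 FPKM (19.6 to 22.0) in the knockdown library and 20.3 FPKM (19.2 to 21.7) in the control library. The levels were nearly alike, with a log2 ratio of 0.03 that was −0.005 when the libraries were scaled to their upper quartiles. Its transcript OSMR-201 codes for 979 amino acids. The OSMR and IL6ST log2 ratios differed by more than their intervals, and only the shared chain had intervals apart between the libraries.

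IL6R (ENSG00000160712), on chromosome 1 from 154405193 to 154469450, was near the limit of what these libraries show. It was at 0.0401 FPKM (0.0135 to 0.560) in the knockdown library and 0.575 FPKM (0.194 to 1.60) in the control library, with overlapping intervals. The control value was split over IL6R-203, a shorter transcript annotated with 293 amino acids, at 0.340 FPKM, IL6R-202 at 0.157 FPKM and an assembled transcript at 0.0779 FPKM. IL6R-202, which encodes the full receptor of 468 amino acids, was the only transcript above 0 in the knockdown library. A fold of such values means little, since the log2 ratio of −0.60 became −2.27 with 0.1 FPKM added in place of 1 FPKM and −0.15 with 5 FPKM added. Of the other receptor chains for gp130 cytokines, LIFR was at 7.69 and 6.03 FPKM with overlapping intervals, a log2 ratio of 0.31 that was 0.71 with reference transcripts only. IL11RA was listed at 0 in the knockdown library and had 0.844 FPKM in the control library, and CNTFR was listed at 0 in both.

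JAK1 (ENSG00000162434), the kinase bound to gp130 and OSMR, lies on chromosome 1 from 64833229 to 64966504 (minus strand). Its level was 20.3 FPKM (19.3 to 22.5) in the knockdown library and 24.9 FPKM (23.7 to 27.4) in the control library, all from JAK1-201 with 1154 amino acids. The intervals were apart by a small margin, with a log2 ratio of −0.28 (−0.49 to −0.07). The relatives of JAK1 were less abundant, with TYK2 at 8.22 and 8.91 FPKM and JAK2 at 1.65 and 1.82 FPKM, and their intervals overlapped. With reference transcripts only, the log2 ratio of JAK2 turned from −0.09 to 0.43, and among the adaptors of the IL-1 receptor MYD88 turned from −0.03 to 0.57 and TRAF6 from −0.09 to 0.39.

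Within a library the 10 genes kept a similar order of levels. IL6ST came first in both. STAT3, OSMR and JAK1 followed in the knockdown library, with overlapping intervals between neighbours, whereas in the control library JAK1 stood above OSMR with intervals apart and OSMR and STAT3 overlapped. CEBPB had place 5 in the control library, with an interval overlapping that of NFKBIZ at place 6, and place 7 in the knockdown library. SOCS3 had place 8 in the control library, overlapping BCL3 at place 7, and place 6 in the knockdown library, overlapping NFKBIZ at place 5. CEBPD and IL6R had places 9 and 10 in both libraries.

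Several cytokine ligands, some of gp130 receptors and some of the IL-1 receptor, had lower levels upon RBMS1 depletion. The list of 37 other pathway genes was chosen by role, with earlier results of these data known. Of these, 28 were over the limit of 1 FPKM. Of the 28 genes 20 had a log2 ratio below 0, beside 47.2% of all genes, and their median log2 ratio was −0.09. At least 2-fold lower were 4 genes, all ligands, beside 2.8% of all genes, and none was at least 2-fold higher, beside 2.96%. IL1A and IL1B passed the limit only through the control library, where they were higher. CTF1 passed it only through the knockdown library, where it was higher. The count thus describes these genes and supports nothing further. IL6 was at 5.54 FPKM (4.02 to 7.81) in the knockdown library and 19.0 FPKM (17.3 to 21.5) in the control library. This is 29.2% of the control level, a log2 ratio of −1.61, or −2.05 with reference transcripts only. IL11, another gp130 ligand, was at 5.18 and 20.4 FPKM, or a log2 ratio of −1.79. The interleukin-1 genes were also lower, IL1A at 0.873 and 6.90 FPKM (log2 ratio −2.08) and IL1B at 0.570 and 5.97 FPKM (log2 ratio −2.15, or −1.55 with reference transcripts only). The order of these ligands by log2 ratio depended on the transcripts counted. For each of these 4 genes the intervals of both libraries were apart.

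The remaining ligands showed smaller differences. LIF was at 4.58 and 7.29 FPKM, or a log2 ratio of −0.57 that was −0.70 with reference transcripts only. CLCF1 was at 6.51 and 8.63 FPKM, or a log2 ratio of −0.36, and both genes had intervals apart. CTF1 was at 1.85 and 0.943 FPKM, with overlapping intervals. OSM, the ligand of OSMR, was listed at 0 in both libraries, and TNF was at 0 and 0.0694 FPKM.

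**Figure D3:**
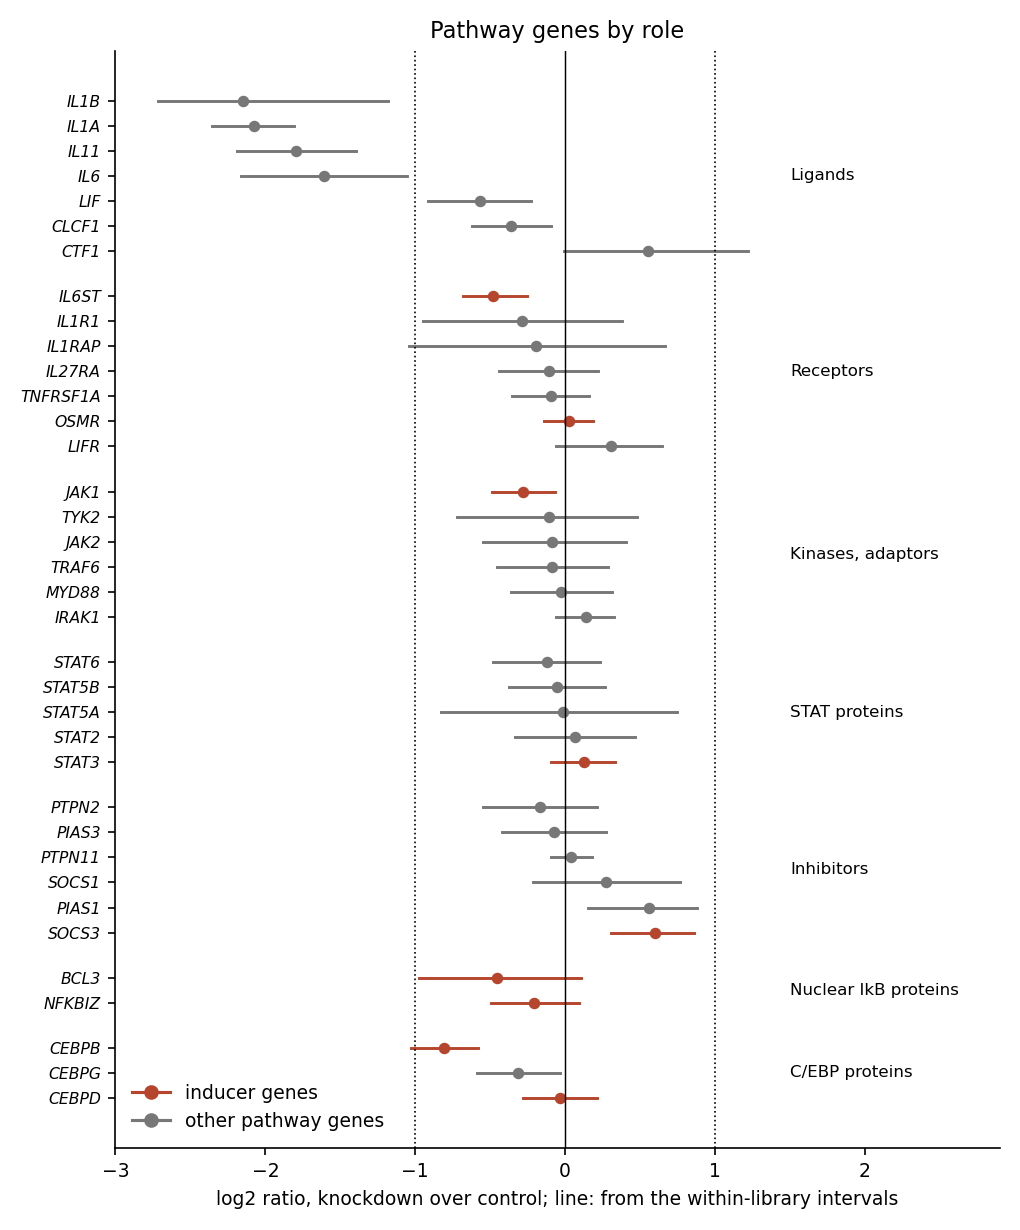
Log2 ratio (knockdown over control) of the inducer genes (red) and other pathway genes (gray) with a mean of at least 1 FPKM, grouped by role; lines run between the ratios of opposite interval bounds and dotted lines mark a 2-fold difference. The 4 genes beyond a 2-fold difference, IL1B, IL1A, IL11 and IL6, are ligands, and all red points lie within it.

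At the output end, several acute phase products were far lower in the knockdown library. Of 18 listed products 6 were over the limit, and 5 of these were at least 2-fold lower, beside 2.8% of all genes. Their median log2 ratio was −3.33 over the 6 and −1.09 over the 9 products above 0 in either library. LCN2 and C3 passed the limit only through the control library, where they were high, so the count and the median describe these genes and support nothing further. LCN2, an iron-siderophore binding protein, was at 0.199 and 35.3 FPKM. SAA1 was at 44.3 and 433 FPKM and SAA2 at 10.2 and 217 FPKM, and reads can be divided between these near-identical genes. C3, the central complement component, was at 0.113 and 10.7 FPKM, and SERPINA1, the gene of alpha-1 antitrypsin, at 17.7 and 38.9 FPKM. PTX3, a pentraxin, was higher instead, at 34.7 and 26.0 FPKM, or a log2 ratio of 0.40 with intervals apart that was 0.75 with reference transcripts only. Several of these values were known when the list was written, so the list is no independent evidence of its direction. CRP and the fibrinogen genes were at or near 0 in both libraries, and 9 of the 18 were listed at 0 in both.

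Genes known to respond to STAT3 were mixed. Of 18 listed genes 17 were over the limit, 7 with a log2 ratio below 0 and 10 above, and their median was 0.06, close to the 0.02 of all genes. The intervals were apart for 6 genes lower and 5 genes higher in the knockdown library, beside 11.5% and 13.3% of all genes. With reference transcripts only, some of the listed genes changed side, so these counts depend on the transcripts counted. The median was again 0.06 with that setting. ICAM1, an adhesion molecule that NF-κB also controls, was at 9.20 and 31.2 FPKM, or a log2 ratio of −1.66, and VEGFA was at 13.8 FPKM in the knockdown library, 45.9% of its control level. On the other side PIM1, a kinase gene induced by STAT signals, was at 13.0 and 6.67 FPKM, or a log2 ratio of 0.87 that was 0.59 with reference transcripts only. TIMP1, the most abundant gene of the list, was at 194 and 142 FPKM, or a log2 ratio of 0.45.

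RBMS1 is an RNA-binding protein, so the 3′-UTRs of the inducer genes were read for 2 short words. AUUUA is the core of AU-rich elements, which mark many cytokine and immediate early mRNAs for decay, and AUAUA is a word that proteins of the RBMS family prefer in vitro. For the inducer genes, counts are over the 3′-UTR of the coding GENCODE transcript with the highest level that has a 3′-UTR. Sequences are in DNA letters, and overlapping matches were counted. For all genes with a mean of at least 1 FPKM, the reference transcript with the highest level was taken, coding or not. It was kept only if coding with a 3′-UTR of at least 10 nt, which left 9300 of 11179 genes with a reference transcript. Over these 9300 genes the median was 1.66 AUUUA per kb and 0.751 AUAUA per kb.

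CEBPB had 4 AUAUA words in 618 nt, 6.47 per kb, and 95.5% of the 9300 genes had this density or less. All 4 are overlapping matches in a single run, printed below. IL6ST had 27 AUAUA words in 5987 nt, 4.51 per kb, with 90.4% of genes at or below it. OSMR had 9 in 2197 nt, 4.10 per kb, with 88.3% at or below it, and NFKBIZ had 6 in 1651 nt, 3.63 per kb, with 85.4%. JAK1 followed with 4 in 1333 nt, with 80.5% at or below it. STAT3 was near the median at 0.826 per kb, and BCL3, CEBPD, SOCS3 and IL6R had none. Whether these words bear on the levels was not tested. For AUUUA the highest density was that of IL6ST, with 23 words, 3.84 per kb and 81.0% of genes at or below it. OSMR held 8, 3.64 per kb with 79.2% at or below it, and SOCS3 held 4 in 1640 nt, 2.44 per kb with 63.2%. The stretches of 30 bases with the most copies in these 3′-UTRs are shown for the 3 genes with the highest AUAUA density and for SOCS3, with the word in capitals, 5′ to 3′ on the strand of the gene, on GRCh38.
CEBPB, AUAUA, chr20:50192210-50192239, plus strand: gtaattttaatattttattATATATATATA
IL6ST, AUAUA, chr5:55940134-55940163, minus strand: ctaatgtgtgtATATATATATATATATATA
OSMR, AUAUA, chr5:38934024-38934053, plus strand: gcggggggcatagctctaatctaATATATA
SOCS3, AUUUA, chr17:78356838-78356867, minus strand: caagtcaaactttgcacatATTTAtATTTA

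The direction of the inducer genes held over the ways of computing them, OSMR aside. CEBPB lay between −0.89 and −0.60, IL6ST between −0.51 and −0.44, JAK1 between −0.31 and −0.24 and BCL3 between −0.59 and −0.28, all below 0 in each alternative that gave a value. SOCS3 lay between 0.41 and 0.67 and STAT3 between 0.09 and 0.13. The widest range after IL6R was that of NFKBIZ, from −0.66 to −0.15.

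**Figure D4:**
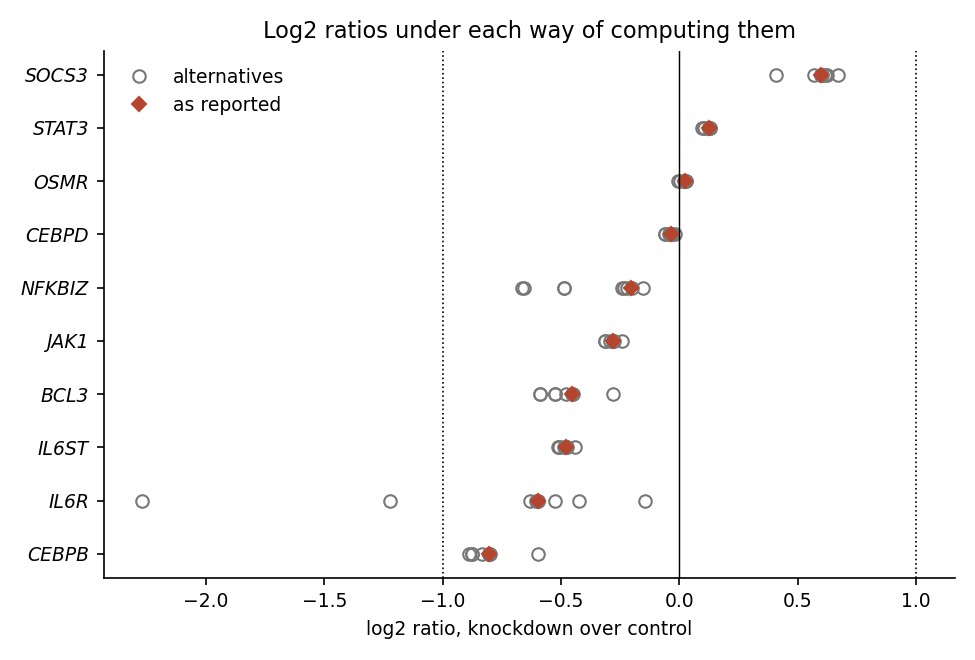
Log2 ratio (knockdown over control) of each inducer gene as reported (red) and under the alternatives (gray circles): other pseudocounts, other choices of transcripts, other scalings and the authors' joint table; dotted lines mark a 2-fold difference. CEBPB stays between −0.89 and −0.60, SOCS3 between 0.41 and 0.67, and IL6R is spread from −2.27 to −0.15.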

How the data were processed

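Per the labels, 1 library came from RBMS1 knockdown and 1 from control MDA-MB-231 cells, and groups were taken from these labels. Values are FPKM with an interval and a coverage per transcript, as Cufflinks writes them, in 1 file per library that the authors deposited. The submitters' processing notes name Bowtie2 2.0.6, TopHat2 2.0.9, Cufflinks 2.1.1 and Cuffdiff 2.1.1. The annotation and build are not given in the sources used here. Of the reference transcripts that GENCODE release 29 (GRCh38) holds, 97.3% had the same start and end there. The authors also deposited a joint table with FPKM of both libraries for 7236 transcripts. Its fold changes, p-values and q-values are the authors' own comparison and were not used.

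Reference transcripts were joined to GENCODE by identifier, and each assembled one went to the gene of its strand sharing the most introns with it, ties to the first identifier. Transcripts of no gene were left out, 70.9% (knockdown) and 71.9% (control) of the summed FPKM. Python 3.11.15 and numpy 2.4.6 were used, and the steps were tested on data with known folds. The log2 ratio has a pseudocount of 1 FPKM. Counts use genes with a mean of at least 1 FPKM and a 2-fold limit. With 1 library per group no test could be made, and intervals cover the uncertainty within a library only. Alternatives were pseudocounts of 0.1 and 5 FPKM, other filters, reference or dominant transcripts only, 3 scalings, exon-overlapping transcripts added, and the joint table, the last 2 chosen after seeing the data. The text names all 10 genes, the ligands of the receptors, and from each list the genes past 2-fold and those with the lowest ratio, highest ratio and highest level. Some genes of the lists are not reported here by name. Other names (relatives within a role, listed markers, TNF and the example products) and the searched sequence words were chosen after the values were seen. The genes and lists were chosen with earlier results of these data known.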

Additional observations from a re-analysis of the deposited data

How the results depend on the processing

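No paired analysis was possible because each group holds a single library, and for the same reason no library could be left out. No inducer gene over the filter was at least 2-fold different under any of the 10 alternatives for this count. IL6R, below the filter, was past 2-fold at −2.27 with 0.1 FPKM added and −1.22 with gene values scaled to equal totals. Of the 85 values of single inducer genes under an alternative, 82 lay within the interval of the reported ratio and none turned a direction that its interval had fixed. Those outside were NFKBIZ at −0.66 with exon-overlapping transcripts added and −0.66 in the authors' joint table, and the IL6R value with 0.1 FPKM added. The median of the inducer genes, over the 9 that passed the filter (8 with a mean of at least 5 FPKM, 10 with no filter), lay between −0.28 and −0.15, that of the pathway genes between −0.14 and −0.05 and that of the STAT3 responsive genes between 0.03 and 0.13. The median of the acute phase products was −3.84 with gene values scaled to equal totals, −3.84 with 0.1 FPKM added and −1.09 with no filter on low values, where 9 products enter. Counts over all genes moved from 313 lower and 331 higher by 2-fold to 133 and 124 with 5 FPKM added, 138 and 140 with a mean of at least 5 FPKM, 507 and 553 for reference transcripts alone, 477 and 500 when a gene was its dominant transcript, and 671 and 662 after scaling gene values to equal totals. The files hold no read counts, so depth limits low genes such as IL6R to a statement that they were near 0.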

Other observations

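Some assembled transcripts over the inducer genes belong to no comparison. In BCL3 the knockdown library held 2 of 1 exon, from 44749488 to 44749924 at 1.22 FPKM and from 44753900 to 44754285 at 1.51 FPKM. The control library held 1, from 44753087 to 44753561 at 1.52 FPKM. None of these overlaps an annotated exon of BCL3. In NFKBIZ the knockdown library held 2 such transcripts between the upstream and the downstream promoter, at 0.519 and 0.541 FPKM, and the control library none there. The authors' joint table lists 3 transcripts of these genes that the per-library files have at 0 in both libraries. They are NFKBIZ-203, which starts at the upstream promoter, at 0.686 and 2.02 FPKM, NFKBIZ-209, with 129 amino acids, at 1.15 FPKM in the knockdown library and 0 FPKM in the control library, and a STAT3 transcript for 672 amino acids, at 0 FPKM in the knockdown library and 0.869 FPKM in the control library.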
